A study of Homo sapiens with 10 samples.

Results

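ATP-binding cassette (ABC) drug efflux transporters were examined in spheroids grown from PC-3 cells, an established human line from a bone metastasis of prostate cancer. The 8 members, chosen by gene symbol, were ABCG2, ABCB1, ABCC1, ABCC2, ABCC3, ABCC4, ABCC5 and ABCC10, and 8 of 8 were listed among the 18144 genes with a value. RNA was sequenced from wild-type spheroids. Those that received no drug (CTRL) were sampled on days 0, 3 and 7. Spheroids given conventional topotecan as a bolus at the start (CONV-TOPO, labelled CON) were sampled on days 3 and 7. Those given extended exposure to daily fractions of topotecan (EE-TOPO, labelled EE and METRO) were also sampled on days 3 and 7. Each treatment and day had 1 library, so that no difference here has a replicate check, and all groups are the same cell line. The study's text gives a longer exposure for the later samples than the labels, and the day in the labels is used.

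ABC transporters are membrane proteins that use the energy of ATP to move substrates out of the cell or into organelles, and high levels of the drug-exporting members lower the amount of drug that stays in a cell. ABCG2 (breast cancer resistance protein) is known to export topotecan, a topoisomerase I inhibitor. No transport was measured here, and whether other members also carry topotecan was not examined. ABCB1 (P-glycoprotein) exports taxanes among many other drugs, and the ABCC members are multidrug resistance-associated proteins that carry organic anions, glutathione and glucuronide conjugates and, for ABCC4 and ABCC5, nucleotide analogs and cyclic nucleotides.

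Of the 8 members, 5 were expressed above the filter of 0.528 CPM (counts per 1000000 reads) in at least 2 of the 7 libraries, a level equal to 10 reads in a library of median depth (18.9 M reads, with M for 1000000). These were ABCC1, ABCC3, ABCC4, ABCC5 and ABCC10. The other 3, ABCG2, ABCB1 and ABCC2, were at or near 0 in every library.

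Sequence just before the start of transcription is shown for ABCC2, which did not pass the filter, and for ABCC4 and ABCC5, which did, because the 3 differ widely in CpG content. The stretches are from RefSeq on GRCh38.p14, written 5′ to 3′ on the strand of the gene and trimmed to bases that no annotated exon covers, with each CpG dinucleotide in capitals. They lie at chr10:99782390-99782639 (plus strand) for ABCC2, chr13:95301476-95301701 (minus strand) for ABCC4 and chr3:184017940-184018134 (minus strand) for ABCC5.
ABCC2: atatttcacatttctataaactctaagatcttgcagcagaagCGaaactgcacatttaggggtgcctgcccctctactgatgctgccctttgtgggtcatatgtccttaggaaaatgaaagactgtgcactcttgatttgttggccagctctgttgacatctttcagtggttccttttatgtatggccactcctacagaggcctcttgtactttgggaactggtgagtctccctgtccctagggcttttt
ABCC4: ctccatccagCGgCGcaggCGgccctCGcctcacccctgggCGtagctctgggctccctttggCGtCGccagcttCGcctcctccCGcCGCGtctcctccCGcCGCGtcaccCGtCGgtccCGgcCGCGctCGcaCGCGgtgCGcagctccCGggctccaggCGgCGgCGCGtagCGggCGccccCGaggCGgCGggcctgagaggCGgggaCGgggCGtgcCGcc
ABCC5: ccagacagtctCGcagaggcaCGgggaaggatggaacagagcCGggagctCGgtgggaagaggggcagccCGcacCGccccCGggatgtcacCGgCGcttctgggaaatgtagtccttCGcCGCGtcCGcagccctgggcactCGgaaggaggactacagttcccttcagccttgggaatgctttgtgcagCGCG

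The ABCC2 stretch held 1 CpG in 250 bases, the ABCC4 stretch 37 in 226 bases and the ABCC5 stretch 16 in 195 bases. In the whole window from 250 bases before to 50 bases after the start, 6 of the 8 members had an entry, and ABCC1 and ABCC3 did not. GC content of the window was 45.0% for ABCC2, 55.3% for ABCB1 and 72.0% for ABCG2, beside 54.3% for ABCC10, 65.7% for ABCC5 and 79.7% for ABCC4. The median over 35116 windows of the table was 58.7% GC with 14 CpGs. ABCG2, with 35 CpGs in its window, was near 0 reads just as ABCC2 with 1 CpG was. In the ABCG2 window all 250 bases before the start lie on annotated exons. Whether CpG count goes with level was not tested. Core motifs were searched on both strands, with GCGTG and ACGTG differing in their first base, and each match is only a match of letters. GCGTG, the core of the xenobiotic response element, occurred in all of these windows apart from that of ABCC2 and in 36.5% of all windows. ACGTG, the core of the hypoxia response element, was found 2 times in the ABCC10 window and not in the others, with a share of 21.4% of all windows. TGACNNNGC, the core of the antioxidant response element, was found 1 time each in the ABCC4 and ABCC10 windows (13.3% of all windows). GGGCGG (GC box) occurred 1 time in the ABCC5 window (45.0%), and CCAAT occurred 2 times in the ABCB1 window (34.6%).

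ABCG2 lies on the minus strand of chromosome 4 from 88090264 to 88231627 (hg38). Its estimated reads were 1, 3 and 5 in untreated spheroids on days 0, 3 and 7, 2 and 1 with CONV-TOPO on days 3 and 7, and 3 and 0 with EE-TOPO. This made 15 reads in 7 libraries. In CPM, the untreated level was 0.157 ± 0.106 (SD, n = 3 days). The highest library, untreated day 7, was at 0.263 CPM with an exact 95% Poisson interval of 0.0853 to 0.613 CPM. No increase of ABCG2 with either topotecan regimen was detectable at this depth. A value of 0 is compatible with as many as 3 reads, and this floor ran from 0.133 CPM in the library with most reads to 0.2 CPM in that with fewest. These floors and all intervals cover counting error alone.

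ABCB1, which encodes P-glycoprotein, lies on the minus strand of chromosome 7 from 87503017 to 87713324. It was listed at 0 in 5 of 7 libraries, including all 3 untreated ones. The other 2 were the day-3 treated libraries, with 3 reads (0.197 CPM) with CONV-TOPO and 1 read (0.0445 CPM) with EE-TOPO. These counts lie at or under the floor and show no expression that can be told from 0.

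ABCC2 (MRP2), an exporter of conjugates on the apical side of liver, kidney and gut cells, lies on the plus strand of chromosome 10 from 99782640 to 99852595. Its estimated reads were 7, 3 and 9 in untreated spheroids on days 0, 3 and 7, 4 and 9 on day 3 with CONV-TOPO and EE-TOPO, and 0 in both day-7 treated libraries. The untreated day-7 level was 0.473 CPM (0.216 to 0.897), and the floors of the day-7 treated libraries were 0.182 CPM with CONV-TOPO and 0.2 CPM with EE-TOPO, near the lower end of that interval. Untreated day 3, at 0.159 CPM, was itself at its floor, so that no fold is given. The intervals of the day-7 treated libraries reached up to 0.2242 CPM with CONV-TOPO and 0.2455 CPM with EE-TOPO. They overlapped narrowly with that of untreated day 7, and an overlap of separate intervals does not decide whether libraries differ. No interval of the ratio was computed for ABCC2, so that a day-7 difference beyond counting error was not tested. The day-7 treated libraries also listed more genes at 0 than the others, with 2134 for CONV-TOPO and 1662 for EE-TOPO against 593 to 1256 elsewhere, and the part of this in the ABCC2 value was not tested.

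**Figure D1:**
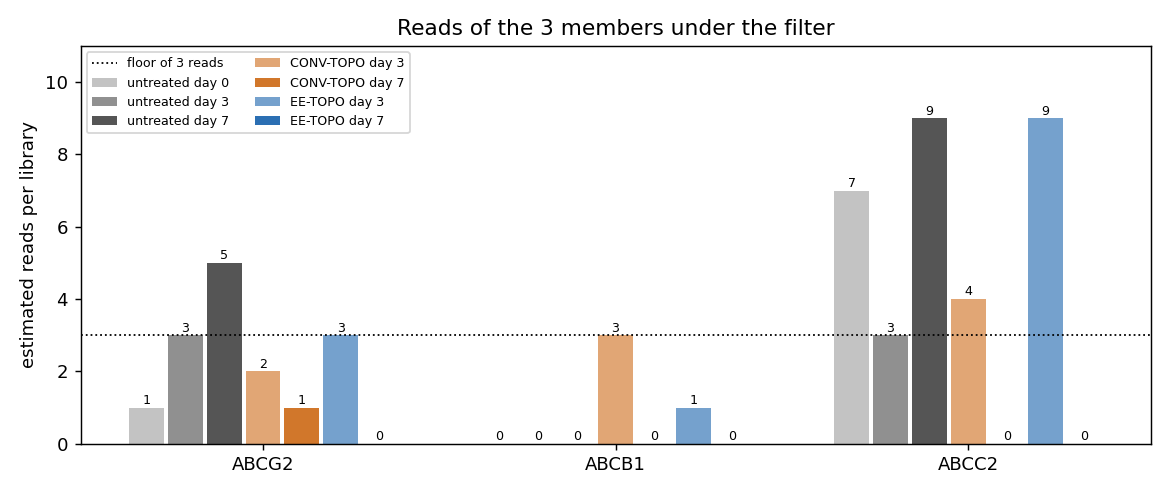
Estimated reads (vertical axis) of ABCG2, ABCB1 and ABCC2 in each of the 7 libraries, with bars coloured by treatment, shaded by day and labelled with the read number, and a dotted line at the floor of 3 reads. No bar is above 9 reads, ABCB1 is at 0 in 5 libraries and ABCC2 is at 0 in both day-7 treated libraries.

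Among the expressed members, ABCC3 had the highest level per length in untreated spheroids, followed by ABCC1, and the other 3 lay close together. ABCC3 (MRP3), an exporter of glucuronides and bile salts on the basolateral side, was at 110.3 ± 26.6 CPM (SD, n = 3 untreated days) and 19.4 CPM per kb of its canonical transcript. ABCC1 (MRP1), an exporter of glutathione conjugates and of anthracyclines, was at 71.2 ± 7.51 CPM and 10.9 CPM per kb. ABCC10 (MRP7), which is known to carry taxanes, was at 31.1 ± 2.67 CPM and 6.18 CPM per kb. ABCC4 (MRP4), an exporter of cyclic nucleotides and prostaglandins, was at 35.2 ± 7.34 CPM and 6.01 CPM per kb. ABCC5 (MRP5), an exporter of cyclic GMP and nucleotide analogs, was at 34.5 ± 9.42 CPM and 5.96 CPM per kb. Over the 3 untreated libraries the level per kb ranged from 16.5 to 24.8 for ABCC3 and from 9.89 to 12.2 for ABCC1, with no overlap. The ranges of ABCC10 (5.56 to 6.5), ABCC4 (4.62 to 7.05) and ABCC5 (4.9 to 7.84) overlapped, and their order is within the spread between days.

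Over the 14442 genes that passed the filter and had a transcript length, the median was 7.4 CPM per kb. ABCC3 was at percentile 73.3 and ABCC1 at 60.0 of these genes, and ABCC10, ABCC4 and ABCC5 at 45.9, 45.3 and 45.1. Of the 32 ABC family genes that passed, ABCC3 was 6th, ABCC1 12th, ABCC10 16th, ABCC4 17th and ABCC5 19th in level per kb. The highest was TAP1, a subunit of the peptide transporter of antigen presentation, at 58.3 CPM per kb. With the mean length over all transcripts of a gene in place of the canonical one, ABCC3 and ABCC1 stayed highest, at 66.6 and 18.5 CPM per kb, followed by ABCC10 (16.4), ABCC5 (13.9) and ABCC4 (13.0).

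**Figure D2:**
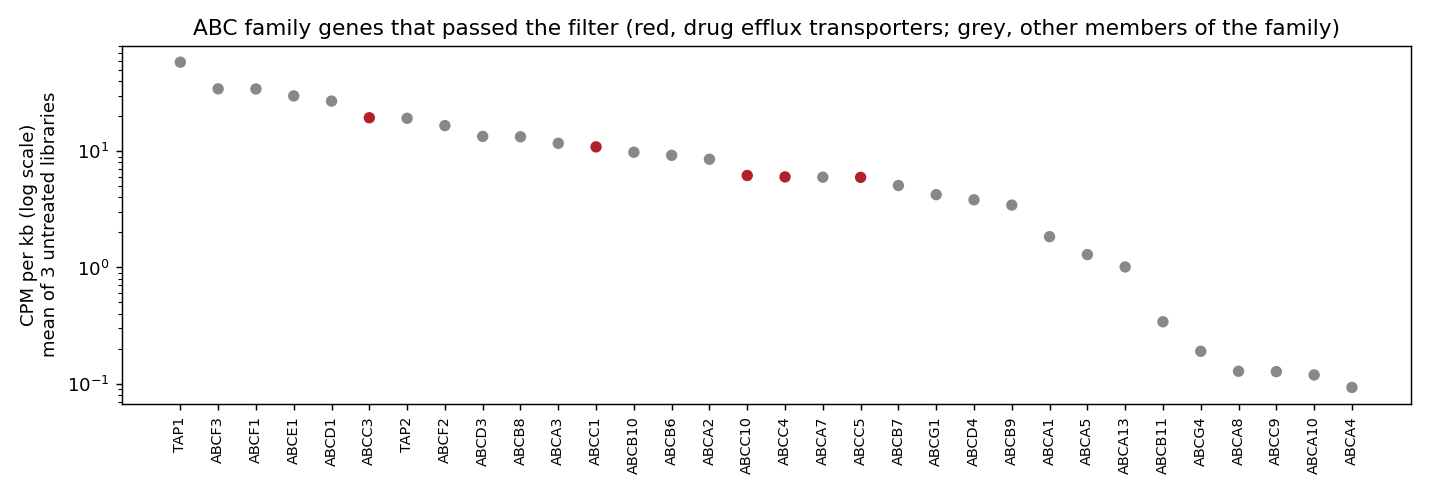
Mean level of the 3 untreated libraries in CPM per kb of canonical transcript (vertical axis, log scale) for the 32 ABC family genes that passed the filter, in falling order, with the 5 drug efflux transporters in red. ABCC3 stands 6th at 19.4 CPM per kb, and ABCC4, ABCC5 and ABCC10 lie close together near 6.

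The 5 expressed members share a long transcript. Their canonical transcripts have 5043 to 6504 bases in 22 to 31 exons, against a median of 3201 bases over all genes tested. ABCC4 has the longest span at 282 kb (chromosome 13, 95019835 to 95301452, minus strand), and ABCC1 spans 193 kb (chromosome 16, 15949616 to 16143054, plus strand). ABCC5 spans 97.9 kb (chromosome 3, 183919936 to 184017885, minus strand) and ABCC3 57.4 kb (chromosome 17, 50634881 to 50692254, plus strand). ABCC10 has the shortest at 22.9 kb (chromosome 6, 43427541 to 43450428, plus strand), under the median span of 27.6 kb. Of the 5043 bases of the ABCC10 transcript, 76 fall on exons of DLK2, which is transcribed from the opposite strand. These reads are uncertain, since strand use in counting is not given in the sources used here.

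The identity of the spheroids was checked against markers. The epithelial genes KRT7, KRT8, KRT18, KRT19, EPCAM and CDH1 were at 149 to 2790 CPM in all libraries. Of the stromal, immune and endothelial markers, COL1A1, CD68 and PECAM1 were detected at 16.8 to 128 CPM, the other 7 listed ones, DCN, PTPRC and VWF among them, were at 1.11 CPM or lower, and CD3E and CDH5 were not listed. In bulk RNA, fewer cells of one kind and less RNA per cell cannot be told apart.

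The first comparison asks how each member stood in spheroids after 3 days of either regimen. No expressed member was 2-fold different from untreated spheroids on day 3, and most ratios were above 1. ABCC5 was at 29.9 CPM in the untreated library, 45.9 CPM with CONV-TOPO and 39.1 CPM with EE-TOPO. The CONV-TOPO ratio was 1.54-fold (95% interval 1.37 to 1.72), and the ratio for EE-TOPO was 1.31-fold (1.18 to 1.46). Intervals of ratios are exact binomial intervals of the estimated reads, and they compare libraries, not conditions. ABCC3 was at 93.7 CPM untreated, 122 CPM with CONV-TOPO and 123.9 CPM with EE-TOPO, which is 1.31-fold (1.22 to 1.39) and 1.32-fold (1.25 to 1.4). ABCC5 and ABCC3 were thus higher in both treated libraries of day 3 than counting error gives. ABCC4 was at 27.1 CPM untreated, 30.7 CPM with CONV-TOPO and 41.3 CPM with EE-TOPO, with an interval that excludes 1 for EE-TOPO (1.53-fold, 1.37 to 1.71) but not for CONV-TOPO (1.13-fold, 0.998 to 1.29).

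ABCC1 and ABCC10 had the CONV-TOPO ratios nearest to 1 on day 3. ABCC1 was at 64.3 CPM untreated, 68.2 CPM with CONV-TOPO (1.06-fold, 0.975 to 1.15) and 71.7 CPM with EE-TOPO (1.12-fold, 1.03 to 1.2). ABCC10 was at 32.8 CPM untreated, 33.8 CPM with CONV-TOPO (1.03-fold, 0.915 to 1.16) and 26.1 CPM with EE-TOPO (0.796-fold, 0.71 to 0.892), the only ratio below 1 on that day. On log2(CPM + 1), the median of the 5 members was 0.18 with CONV-TOPO and 0.38 with EE-TOPO, beside 0.031 and 0.040 over all genes tested. At 2-fold in either direction, 0 of 5 members were past the limit with CONV-TOPO and 0 of 5 with EE-TOPO, where 1.09% and 2.14% of all genes were. Both day-3 treated libraries were below all 3 untreated ones for 0 of 5 members (13.1% of all genes) and above them for 0 of 5 (20.7% of all genes). No member thus left the range of untreated spheroids in the same direction with both regimens on day 3.

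By day 7 all 5 expressed members were lower in both treated libraries than in any untreated library. This held for 44.2% of all genes tested and for 65.2% of those with a canonical transcript of 4 to 7 kb. ABCC1 was at 70.0, 64.3 and 79.2 CPM in untreated spheroids on days 0, 3 and 7, and at 40.1 CPM with CONV-TOPO and 33.5 CPM with EE-TOPO on day 7. Against the untreated day-7 library this was 0.507-fold (0.462 to 0.555) and 0.423-fold (0.381 to 0.468). ABCC5 was at 28.4, 29.9 and 45.4 CPM untreated, and at 19.1 and 19.6 CPM on day 7 with CONV-TOPO (0.421-fold, 0.368 to 0.479) and EE-TOPO (0.433-fold, 0.378 to 0.494). Against untreated day 7 the lowest ratios were those of ABCC5 with CONV-TOPO and ABCC1 with EE-TOPO.

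ABCC4 was at 37.3, 27.1 and 41.3 CPM untreated on days 0, 3 and 7, and at 20.1 CPM with CONV-TOPO (0.486-fold, 0.426 to 0.553) and 18.6 CPM with EE-TOPO (0.45-fold, 0.391 to 0.516) on day 7. ABCC10 was at 28.1, 32.8 and 32.6 CPM untreated, and at 19.8 CPM (0.608-fold, 0.53 to 0.696) and 17.5 CPM (0.537-fold, 0.463 to 0.621). ABCC3 was at 96.2, 93.7 and 141 CPM untreated, and at 79.0 CPM (0.56-fold, 0.524 to 0.599) and 89.4 CPM (0.634-fold, 0.593 to 0.677). The 10 day-7 intervals of the 5 members all lie below 1. The gap to the lowest untreated library was narrow for ABCC3, and both regimens shared the same untreated libraries.

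**Figure D3:**
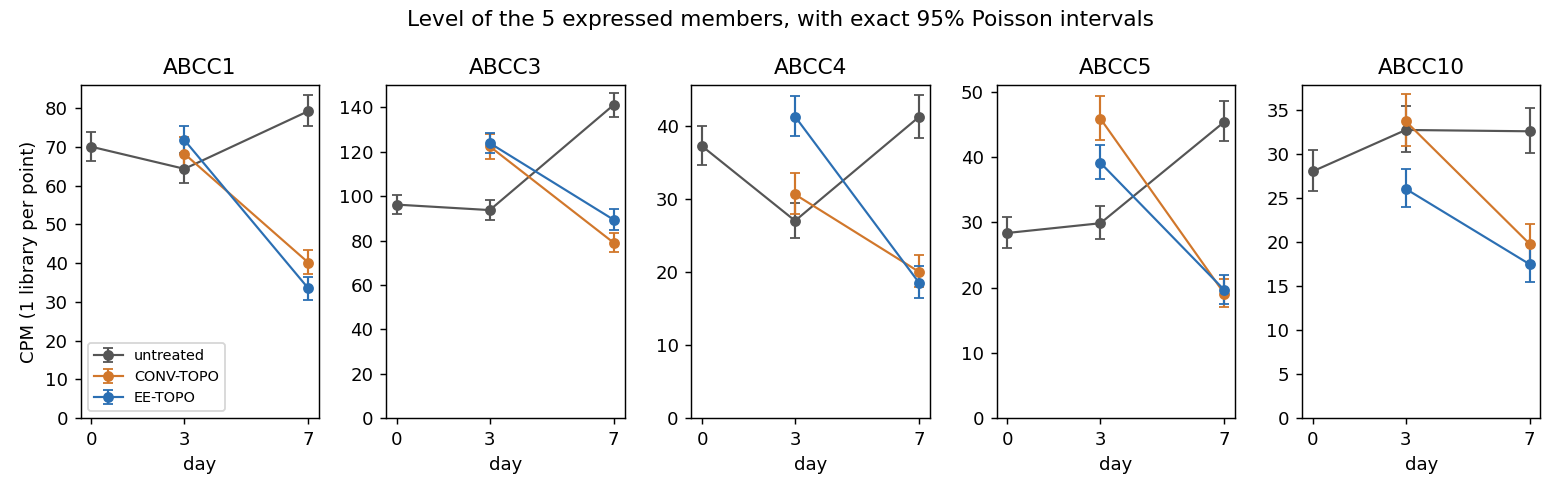
Level in CPM (vertical axis, from 0) against day (horizontal axis) for the 5 expressed members, with 1 library per point, lines joining the libraries of a treatment and bars for exact 95% Poisson intervals. In each panel both day-7 treated points lie under all 3 untreated points, while the day-3 points of the treated libraries lie among or near them.

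The position of all 5 members below the untreated range was shared by 44.2% of all genes tested, and by 65.2% of the 3738 genes with a canonical transcript of 4 to 7 kb, the lengths that the members have. With 4 treated libraries below all untreated ones the count was 0 of 5 members (5.72% of all genes). At least 2-fold lower on log2(CPM + 1) on day 7 were 2 of 5 members with CONV-TOPO, ABCC4 and ABCC5, where 14.6% of all genes and 21.3% of genes with transcripts of 4 to 7 kb were. With EE-TOPO 3 of 5 members were, ABCC1, ABCC4 and ABCC5, against 14.9% of all genes and 21.5% of those with such transcripts. ABCC1 with CONV-TOPO, at -0.96, lay just short of that limit of -1. The median log2 ratio of the 5 members was -0.96 with CONV-TOPO and -1.11 with EE-TOPO, beside -0.26 and -0.24 over all genes.

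These counts depended on the scaling. TMM scaling, which centres libraries on a trimmed mean of their log ratios, shifts day-7 log2 ratios up by 0.27 with CONV-TOPO and 0.25 with EE-TOPO before the pseudocount is added. After it, 0 members were 2-fold lower, the medians of the members were -0.70 and -0.88, and 5 of 5 members were still below untreated day 7 with each regimen. With TMM 4 of 5 members, all but ABCC3, had both day-7 treated libraries below all untreated ones. The share of all genes in that position with TMM was not computed. The untreated day-0 library was lower than that of day 7 for all 5 members. Against day 0 in place of day 7, ABCC3 was at 0.821-fold with CONV-TOPO and 0.929-fold with EE-TOPO (0.866 to 0.997). ABCC1 was at 0.573-fold and 0.478-fold. ABCC5, at 0.673-fold and 0.692-fold, no longer had the lowest ratio with CONV-TOPO.

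**Figure D4:**
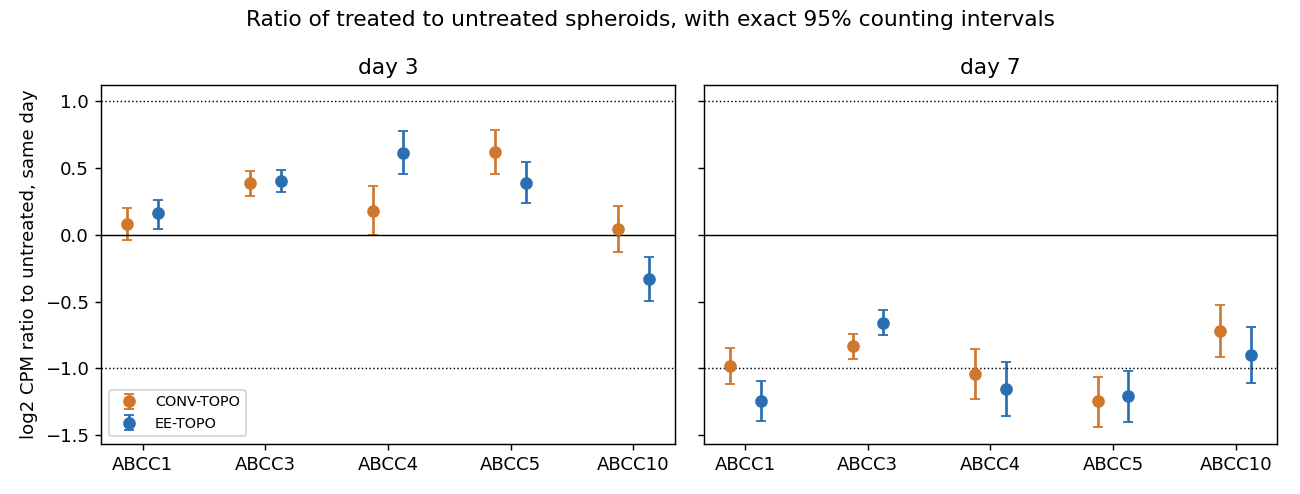
Log2 ratio of CPM in treated to untreated spheroids of the same day (vertical axis) for the 5 expressed members on day 3 (left) and day 7 (right), with CONV-TOPO in orange, EE-TOPO in blue, exact 95% counting intervals as bars and dotted lines at 2-fold. On day 3 the ratios run from 0.796-fold to 1.54-fold, and on day 7 all 10 lie between 0.421-fold and 0.634-fold.

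Day-7 ratios went with transcript length across genes. Over 11232 genes with an annotated transcript and at least 5 CPM on average, Spearman's rho between the log2 ratio and transcript length was -0.65 with CONV-TOPO and -0.61 with EE-TOPO, and with GC content it was 0.52 and 0.51. These are descriptions across genes of the same libraries, and genes are not independent replicates. A linear trend in span, length and GC content held 48.7% and 44.5% of the variance of the day-7 ratios. The median of the 3088 such genes with transcripts of 4 to 7 kb was -0.62 with CONV-TOPO and -0.58 with EE-TOPO. After removal of this linear trend the members' median log2 ratio was -0.43 with CONV-TOPO and -0.59 with EE-TOPO. All 5 stayed below 0 with each regimen, and the share of all genes below 0 after this removal was not computed. Among the members, ABCC10, ABCC5 and ABCC1 kept the lowest values with EE-TOPO, at -0.75, -0.59 and -0.64. ABCC4 kept the least, at -0.12 with CONV-TOPO and -0.21 with EE-TOPO. On day 3 the relation with length ran the other way, with rho of 0.33 and 0.52, and after removal of the trend the members' medians were 0.044 and 0.15.

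**Figure D5:**
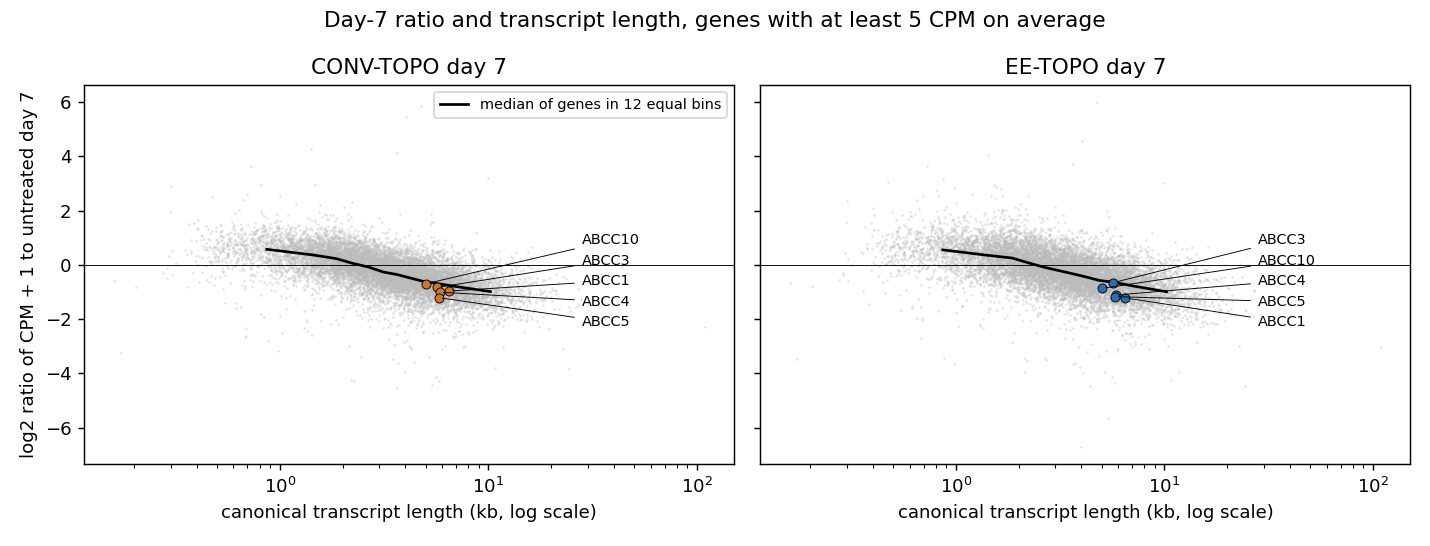
Log2 ratio of CPM + 1 on day 7 to untreated day 7 (vertical axis) against canonical transcript length in kb (horizontal axis, log scale) with CONV-TOPO (left) and EE-TOPO (right), with genes of at least 5 CPM in grey, the median of 12 bins of equal gene number as a line and the 5 members as named points. The line falls with length, and the members lie at log2 ratios of -1.21 to -0.69 with CONV-TOPO and -1.22 to -0.65 with EE-TOPO.

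The study set the extended regimen against the conventional one. Per its methods, the bolus was given at the start, and the daily fractions add up to the same dose only over a week. On day 3 the regimens thus differed in the dose received so far as well as in schedule, and these cannot be told apart. On day 3, ABCC4 was 1.35-fold (1.2 to 1.51) higher with EE-TOPO than with CONV-TOPO. ABCC5 was at 0.853-fold (0.771 to 0.943) and ABCC10 at 0.772-fold (0.685 to 0.871) of CONV-TOPO. ABCC1 (1.05-fold, 0.972 to 1.14) and ABCC3 (1.01-fold, 0.955 to 1.07) had intervals that include 1. On day 7, ABCC1 was at 0.834-fold (0.742 to 0.938) and ABCC3 at 1.13-fold (1.05 to 1.22) of CONV-TOPO. The intervals of ABCC4 (0.926-fold, 0.786 to 1.09), ABCC5 (1.03-fold, 0.874 to 1.21) and ABCC10 (0.883-fold, 0.748 to 1.04) include 1, and differences of that size were not detectable at this depth. No member differed in the same direction on both days with intervals that exclude 1. At 2-fold, 0 of 5 members differed between regimens on day 3 (0.728% of all genes) and 0 of 5 on day 7 (1.38%).

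Across days 3 and 7, limma with treatment and day as terms on log2(TMM-scaled CPM + 1) tested each treatment over 6 libraries, with 2 residual degrees of freedom and with the day-to-day change of the treated-to-untreated difference as its error. It called 0 genes with an adjusted p under 0.05 (Benjamini-Hochberg) for EE-TOPO against CTRL, which is 0% of all genes, 0 for CONV-TOPO against CTRL (0%) and 0 for EE-TOPO against CONV-TOPO (0%). At an unadjusted p under 0.05 the numbers of genes were 523, 261 and 133, with 0 members in any of them. The largest change of a member in this limma fit was that of ABCC10 with EE-TOPO, at -0.50 (SE 0.254, adjusted p = 0.912). ABCC1 with EE-TOPO was at -0.44 (SE 0.313, limma adjusted p = 0.912), and its log2 ratios had opposite signs on days 3 and 7. With CONV-TOPO the members lay between -0.33 for ABCC1 (limma adjusted p = 0.916) and -0.11 for ABCC3 (limma adjusted p = 0.943). Between the regimens they lay between -0.28 for ABCC10 and 0.14 for ABCC4.

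Untreated spheroids themselves varied between days. From day 3 to day 7 without drug, ABCC4 was 1.53-fold, ABCC5 1.52-fold, ABCC3 1.5-fold and ABCC1 1.23-fold, whereas ABCC10 stayed at 0.996-fold. From day 0 to day 7 the highest ratios were 1.6-fold for ABCC5 and 1.47-fold for ABCC3. These untreated ratios reached the size of the treated ones of day 3, of which the highest was 1.54-fold.

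Over the 7 libraries, the members' log2 levels went together to different degrees. Pearson's r, given as a description over 7 libraries that share 3 untreated ones, was 0.903 for ABCC1 and ABCC4 and 0.3 for ABCC3 and ABCC10, the highest and the lowest of 10 pairs. Of 9984 genes with at least 10 CPM on average, the closest to ABCC1 were ADCY3 (r = 0.9968) and KANK1 (0.9959). The closest to ABCC4 were CADPS2 (0.9931) and MGAT5 (0.9904), and those to ABCC5 were SUN1 (0.9917) and NEAT1 (0.987). ABCC10 was closest to USP28 (0.9906) and SFSWAP (0.9769), and ABCC3 to DENND3 (0.982) and MAT2A (0.9697). With 7 libraries and so many genes, values of this size are a ranking and have no test.

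Other genes of drug transport were examined in 5 lists, in which limma called 0 genes and none was 2-fold different with both regimens on day 3 (0.142% of all genes were lower and 0.303% higher). Of 27 other ABC family genes that passed the filter, the median of both regimens was -0.02 on day 3 and -0.31 on day 7 on the log2 scale, beside 0.038 and -0.25 over all genes. On day 7, 4 of 27 were at least 2-fold lower with both regimens, namely ABCA1, ABCA5, ABCA13 and ABCB10, and 0 were higher, where 11.1% of all genes were lower and 2.53% higher. With TMM, a scaling applied to the lists after seeing the data, 3 of 27 were lower (ABCA1, ABCA5 and ABCA13) and 6.24% of all genes. ABCA1, the cholesterol exporter, was at 23.7 CPM in untreated day-7 spheroids, 3.83 CPM with CONV-TOPO and 5.39 CPM with EE-TOPO. ABCA13 was at 25.1, 5.23 and 4.99 CPM and ABCA5 at 12.03, 2.74 and 3.79 CPM in these libraries. TAP1 was the highest of the list on day 7, at 152 CPM untreated, 204 CPM with CONV-TOPO and 212 CPM with EE-TOPO.

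Of 12 regulators known for efflux transporter genes, 3 were at least 2-fold lower on day 7 with both regimens, HIF1A, NR3C1 and PPARA, where 11.1% of all genes were. With TMM 1 of 12, HIF1A, was 2-fold lower (6.24% of all genes). The list had a median of 0.17 on day 3 and -0.55 on day 7, beside 0.038 and -0.25 over all genes. HIF1A, the oxygen-sensing transcription factor, was at 365 CPM in untreated day-7 spheroids, 120.5 CPM with CONV-TOPO and 113 CPM with EE-TOPO. PPARA, a lipid-sensing nuclear receptor, was at 31.8, 14.9 and 14.6 CPM, and was also the highest of the list on day 3. KEAP1, the repressor of NFE2L2, was the highest on day 7, at 134 CPM untreated, 174 CPM with CONV-TOPO and 163 CPM with EE-TOPO. YBX1, the lowest of the list on day 3, had the highest level per kb.

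Of 17 genes of glutathione synthesis and conjugation, the median was -0.07 on day 3 and 0.08 on day 7, beside 0.038 and -0.25 over all genes. GSTP1, the main glutathione transferase of many tumours, was at 274, 237 and 221 CPM in untreated spheroids on days 0, 3 and 7, at 166 and 179 CPM on day 3 with CONV-TOPO and EE-TOPO, and at 427 and 408 CPM on day 7. It was thus below the untreated range on day 3, as were 13.1% of all genes. On day 7 it was above that range, and the share of all genes above it was not computed. GSTM4 was the lowest on day 3, at 16.7 CPM untreated, 7.88 CPM with CONV-TOPO and 10.5 CPM with EE-TOPO. UGT1A1 was at least 2-fold lower with both regimens on day 7 (11.1% of all genes), though not with TMM, and UGT1A6 at least 2-fold higher (2.53% of all genes), both under 5 CPM, and they share exons in the UGT1A locus, so that their split of reads is uncertain. SULT1A1, the highest on day 3, was at 1.09 CPM or lower in each library.

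Of 10 anchors of membrane transporters, with medians of -0.04 on day 3 and -0.12 on day 7, 1 was at least 2-fold lower on day 7 with both regimens, a share near the 11.1% of all genes. This was RDX, also with TMM, which encodes radixin and is known to hold ABCC2 at the apical membrane, with 144 CPM untreated, 44.8 CPM with CONV-TOPO and 49.8 CPM with EE-TOPO. PIM1, a kinase known to act on ABCG2, was the highest on day 7, at 91.3 CPM untreated, 138 CPM with CONV-TOPO and 158 CPM with EE-TOPO. SLC9A3R1 was the lowest and PDZK1 the highest on day 3, and SLC9A3R2 had the highest level per kb. Of 9 uptake carriers that passed, with medians of 0.011 and -0.12, 1 (SLCO1B3) was at least 2-fold lower on day 7 with both regimens, again near the 11.1% of all genes, and 0 were with TMM. SLCO1B3 was at 34.4 CPM untreated, 15.2 CPM with CONV-TOPO and 11.2 CPM with EE-TOPO. SLC29A1, a nucleoside carrier, was at 52.6, 67.5 and 67.1 CPM, the highest of its list on day 7, and SLCO4A1 had the highest level per kb.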

How the data were processed

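RNA was sequenced from PC-3 spheroids with TruSeq libraries. Per the labels and the study's methods, the authors mapped reads to hg38, counted them per gene and processed them with Partek. They deposited 1 table of CPM (counts per 1000000 reads) with an offset of 0.0001 added to each value, which was subtracted here. Of 10 samples in the labels, the 3 of day 1 were not analysed here. All sample columns were mapped by the identifier in the labels.

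The smallest steps between low CPM give the value of 1 read, from which 15.0 to 22.5 M reads per library (M, 1000000) were estimated. Of the low values, 90.9% to 92.4% were whole reads (tolerance 0.1 read). As the rest were not whole, no count test was run. Genes with at least 0.528 CPM in at least 2 libraries were tested (14836). Ratios of single libraries used log2(CPM + 1), and levels per kb used the canonical transcripts of GENCODE 44, which gave a value for 97.3% of the genes tested. Both TMM and size-factor (median-of-ratios) scaling started from the CPM. The test was limma 3.58.1 in R 4.3.3, with an empirical Bayes fit, and was tested on simulated data. Other steps used Python 3.11.15, numpy 2.4.6, pandas 2.3.3 and scipy 1.17.1. Some identity markers are not reported here. Nothing says that libraries came from separate cultures.

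All 8 members were named. From each list, the genes with the highest and lowest mean log2 ratio of both regimens on each day and the highest CPM per kb were named, with the 2 genes most alike to each expressed member. ABCB10 and NR3C1 were named after their values were seen. The members and lists were chosen with earlier results of these data known.

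Alternatives covered scaling, pseudocount, filter, day term, libraries in the fit, threshold, baseline, fold, transcript length and removal of a trend with gene properties. TMM scaling of the list counts was added after seeing the data.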

Additional observations from a re-analysis of the deposited data

Results flagged for a closer look

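The ratio to untreated spheroids had opposite signs on days 3 and 7 for 4 of the 5 expressed members. Against untreated spheroids of the same day, with both regimens and under 3 scalings, these were higher than untreated on day 3 and lower on day 7, and the difference between days was not tested. The mean log2 ratio of both regimens on day 7 minus that on day 3 was -1.21 for ABCC1 (0.12 on day 3 and -1.09 on day 7) and -1.13 for ABCC3 (0.39 and -0.74). It was -1.44 for ABCC4 (0.38 and -1.06) and -1.68 for ABCC5 (0.49 and -1.19). The same pattern was present in 3083 of 14836 genes tested, which is 20.8%, and its share among genes with transcripts of 4 to 7 kb was not computed. Across genes, rho of the ratio with transcript length was 0.33 and 0.52 on day 3 and -0.65 and -0.61 on day 7. The untreated baseline also rose from day 3 to day 7, by log2 0.30 for ABCC1, 0.585 for ABCC3, 0.592 for ABCC4 and 0.588 for ABCC5. The sign on day 3 depended on other settings for ABCC1 and ABCC4. With the trend with gene properties removed, ABCC1 on day 3 was at -0.13 with CONV-TOPO and -0.14 with EE-TOPO. Against untreated day 0, ABCC1 was at -0.038 and ABCC4 at -0.27 with CONV-TOPO, and against the mean of the untreated libraries they were at -0.061 and -0.19. ABCC3 and ABCC5 were above 0 on day 3 with both regimens under each of these settings. ABCC10 did not have it, because it was below untreated spheroids with EE-TOPO on day 3.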

How the results depend on the processing

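Each condition is 1 library of 1 cell line, so culture and treatment cannot be told apart in a single ratio of the same day. In a ratio between days, day cannot be told apart from these either. At these depths ABCG2, ABCB1 and ABCC2 can only be placed near 0. No paired analysis was possible because the labels give no replicate numbers and each treatment has 1 library per day. Libraries were matched by day through the day term of the fit, and without that term limma also called 0 genes in each comparison. Leaving out replicates was not possible for the same reason.

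The count of genes called by limma was 0 with every planned setting except the fits on only the 4 libraries of the treatments compared, which called 31 genes for EE-TOPO against CTRL, 25 for CONV-TOPO against CTRL and 67 for EE-TOPO against CONV-TOPO. The cause was not tested. Of the members at least 2-fold lower on day 7, 2 with CONV-TOPO and 3 with EE-TOPO, 0 and 0 were left with TMM, with median-of-ratios scaling and with the trend removed. With untreated day 0 or the mean of the untreated libraries as baseline, 0 were left with CONV-TOPO and 1 with EE-TOPO. At 1.5-fold the counts were 5 with each regimen on day 7 and 1 with each on day 3. The shares of all genes at 1.5-fold were not computed.

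Without day 7, which leaves values with no test, the log2 change against CTRL turned positive except for ABCC10 with EE-TOPO, at -0.37. With EE-TOPO it was 0.10 for ABCC1, 0.35 for ABCC3, 0.54 for ABCC4 and 0.33 for ABCC5. With CONV-TOPO it was 0.045 for ABCC1, 0.34 for ABCC3, 0.14 for ABCC4, 0.56 for ABCC5 and 0.0044 for ABCC10. Between the regimens, ABCC1 turned to 0.059 without day 7, and without day 3 ABCC4 turned to -0.13 and ABCC5 to 0.019. The day left out is the cause of these turns by construction, since the ratios of both days differ in sign. The other 58 counts by setting stayed within 1.5 times of their value, and most of these were counts of 0 that stayed at 0. Of the values of single members and lists, 183 stayed, 80 moved and 12 reversed. Of those that stayed, 115 were changes in the limma fit. Apart from those without a day, these counted as stayed on sign and call alone, whatever their size.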
